A study of Homo sapiens with 6 samples.

Results

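The genes of the proteasome and the immunoproteasome were examined in DMS53 cells with and without enforced expression of OC2. Members were chosen by name. Gene identifiers were matched to symbols, and symbols that begin with PSMA to PSMG and a number were taken, without names that contain a hyphen and without names that end in P and digits, the form of pseudogenes. This left 49 of the 62696 genes counted, from 101 symbols with the prefix, of which 7 had a hyphen and 45 ended in P and digits. The rule used no measured value. It kept PSMC3IP, whose product acts in meiotic recombination and is no proteasome subunit, and it removed PSME3IP1, which is no pseudogene. By role, the members were 8 genes of the 20S alpha ring, 8 constitutive or tissue-restricted genes of the 20S beta ring, 3 immunosubunits, 6 ATPases and 14 non-ATPase genes of the 19S particle, 4 activators, 1 inhibitor, 4 assembly chaperones and PSMC3IP.

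The proteasome degrades ubiquitin-tagged proteins. Its barrel-shaped 20S core is built of rings of alpha and beta subunits, and the 19S particle at the ends of the core binds, unfolds and feeds in the substrate. In cells exposed to interferon-gamma, the catalytic beta subunits PSMB5, PSMB6 and PSMB7 are replaced in newly built cores by PSMB8, PSMB9 and PSMB10, and the ring-shaped activator PA28, made of PSME1 and PSME2, can cap the core. This immunoproteasome is best known for supplying peptides to MHC class I, a route that is often poorly active in small cell lung cancer (SCLC).

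The libraries came from DMS53, an established SCLC cell line with neuroendocrine (NE) features. All cells had been transduced with lentivirus and selected with puromycin. The 3 control libraries came from cells with the empty vector, which carries monomeric GFP and puromycin resistance, and the 3 OC2-OE libraries from cells with a vector that also carries the OC2 open reading frame fused to monomeric GFP, expressed constitutively. Neither the labels nor the methods name separate clones or say how often each vector was introduced. The p-values thus measure the spread between 3 experiments per group on 1 line. If each vector was introduced once, differences between the selected populations cannot be told apart from those due to OC2. In total, 16533284 to 19099337 read pairs were counted per library. ONECUT2, which encodes OC2, was counted 394 to 465 times in control and 68853 to 74031 times in OC2-OE, with reads of the introduced sequence and of the endogenous gene in the same count. The common biological coefficient of variation of the fit was 2.2%. Values are given as CPM (counts scaled to a common library size after TMM normalization) where 1 gene is followed between groups, and as TPM (counts scaled by exon length and library) or CPM per kilobase where genes are compared with each other. SE is the standard error of the log2 fold change in the fit. A gene was called where the adjusted p of edgeR's quasi-likelihood test over all 17307 tested genes was under 0.001, the threshold used in the study. In bulk RNA, a change in the number of cells that express a gene and a change of RNA per cell cannot be told apart.

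The inducible genes rose and most of the other called members fell by small amounts. All of PSMB9, PSMB10, PSME2, PSMB8 and PSME1 were higher in OC2-OE cells, from 3.29-fold for PSMB9 to 1.26-fold for PSME1, and for each of them all 3 OC2-OE libraries lay above all 3 control libraries. Of the 42 other members that were tested, 4 were higher, 18 were lower and 20 had no call, and 39 changed by less than 1.5-fold. Over all members, 47 of 49 were tested, with 9 called higher, where 27.8% of all tested genes were called higher, and 18 called lower, where 28.7% of all tested genes were called lower. The share of the calls that were lower was 66.7%. It was 53.8% with library size only and 55.6% with upper-quartile scaling. Both of these raise the OC2-OE values of every gene by a few percent relative to control. Over all tested genes, 4966 were lower and 4810 higher in the main fit. With library size only these counts were 4427 and 5337, and with upper-quartile scaling 4521 and 5256. The median log2 fold change of the members was -0.04, against 0.01 for all tested genes. Their median absolute log2 fold change was 0.15, against 0.38 for all tested genes and 0.27 for genes with a mean log2 CPM of at least 5.

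Size and abundance set these counts in context. At least a 1.5-fold rise with a call was found for 3 members, PSMB9, PSMB10 and PSMG4, and for 14.6% of all tested genes. At least a 1.5-fold fall with a call was found for 1 member, PSMC3IP, and for 14.3% of all tested genes. Among the 40 members with a mean log2 CPM of at least 5, 6 were higher and 17 lower, and among all 7052 genes at that level the shares were 31.7% and 39.8%. The 3 libraries of 1 group lay entirely above those of the other for 33 of the 47 tested members, and for 73.2% of all tested genes. As shares of the 47 tested members, 19.1% were called higher and 38.3% lower. The difference of these shares from those of all genes was not tested.

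**Figure D1:**
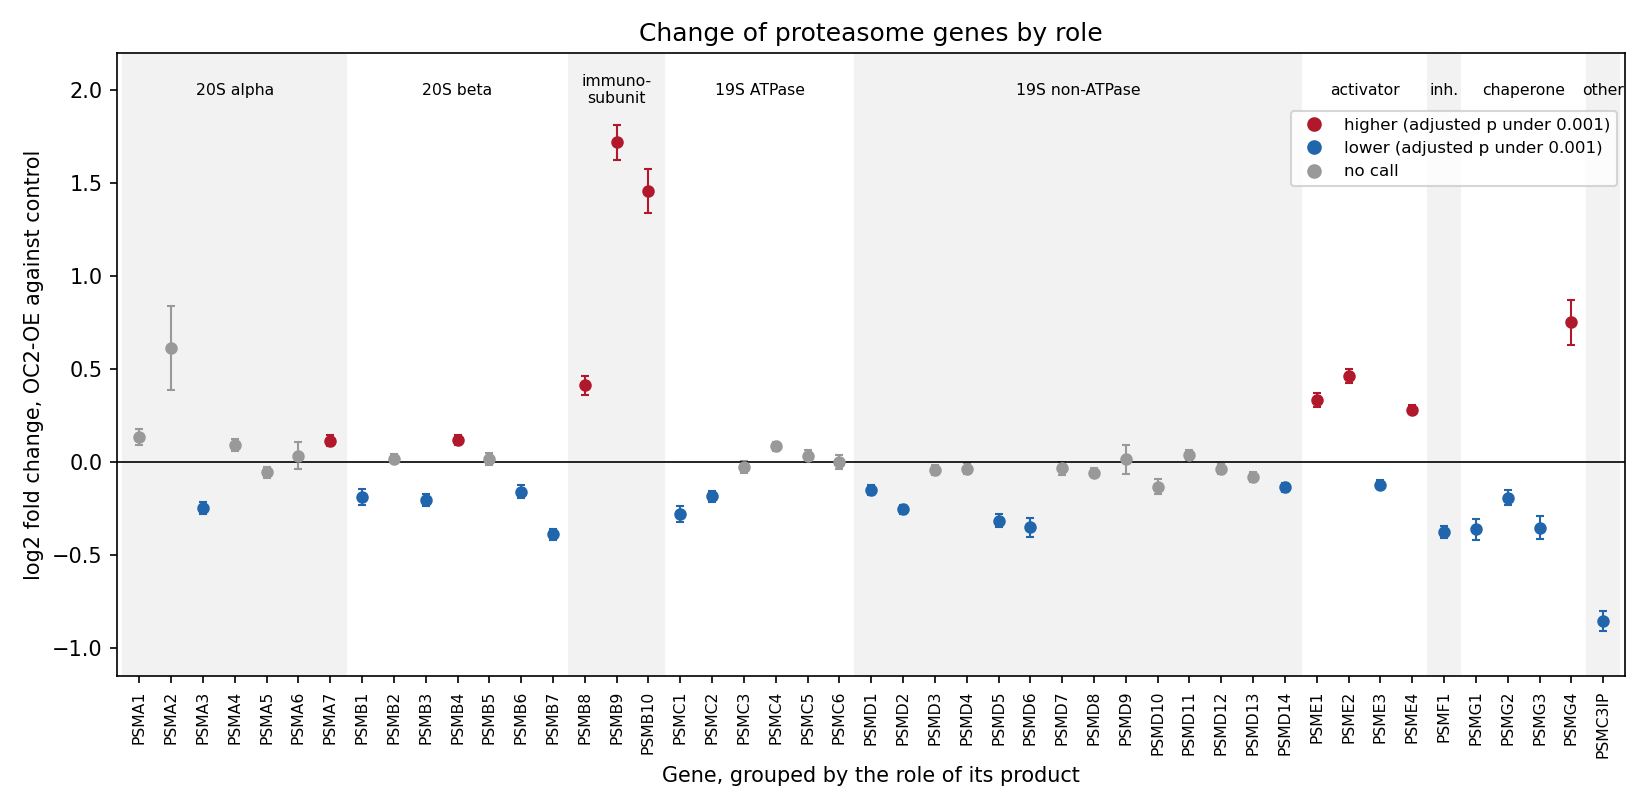
Log2 fold change of OC2-OE against control for each of the 47 tested members, grouped by role. Points are edgeR estimates, bars are standard errors, and colour gives the call at an adjusted p under 0.001. The immunosubunits, with 0.41, 1.72 and 1.46, stand above every called gene of the 20S and 19S groups, and PSMA2 (0.61) has no call. The called genes of the 19S groups all lie below 0.

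PSMB9 encodes the immunosubunit that takes the place of PSMB6, the caspase-like subunit. Its gene (ENSG00000240065.8) lies on the plus strand of chromosome 6 from 32844136 to 32859851 in the MHC region. It had 5.67, 7.11 and 6.58 CPM in control and 21.0, 21.8 and 20.9 CPM in OC2-OE. The mean rose from 6.45 ± 0.727 to 21.2 ± 0.489 CPM (SD, n = 3) (log2 fold change 1.72, SE 0.094, adjusted p = 8.85e-35). The lowest OC2-OE library was well above the highest control library. Summed over 3 libraries, 332 counts in control and 1159 in OC2-OE stand behind these values.

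PSMB10 encodes the counterpart of PSMB7, the trypsin-like subunit. Its gene (ENSG00000205220.12) lies on the minus strand of chromosome 16 from 67934506 to 67936864. The control libraries had 4.71, 3.88 and 4.24 CPM and the OC2-OE libraries 11.2, 11.5 and 12.7 CPM. From 4.28 ± 0.414 to 11.8 ± 0.767 CPM (SD, n = 3), the estimated log2 fold change was 1.46 (SE 0.12, adjusted p = 1.42e-21). The groups did not overlap. This gene shares 640 bases of exon with an unnamed gene on the same strand (ENSG00000261884), 39.4% of its annotated exon bases, and 45.3% of its principal coding transcript lies in such exons. Read pairs that lay in both genes were not counted, so its level is a minimum. The unnamed gene had 71 counts in control and 129 in OC2-OE.

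PSMB8 encodes the counterpart of PSMB5, the chymotrypsin-like subunit, and was the most abundant of the immunosubunits. Its gene (ENSG00000204264.12) lies beside PSMB9 on the minus strand of chromosome 6, from 32840717 to 32844679. It had 36.8, 41.9 and 43.0 CPM in control and 52.0, 54.6 and 55.2 CPM in OC2-OE. The mean rose from 40.6 ± 3.31 to 53.9 ± 1.67 CPM (SD, n = 3) (log2 fold change 0.41, SE 0.051, adjusted p = 2.87e-12). All OC2-OE libraries lay above all control libraries. The 3 immunosubunits together amounted to 51.3 ± 3.60 CPM in control and 86.9 ± 2.38 CPM in OC2-OE (SD, n = 3).

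**Figure D2:**
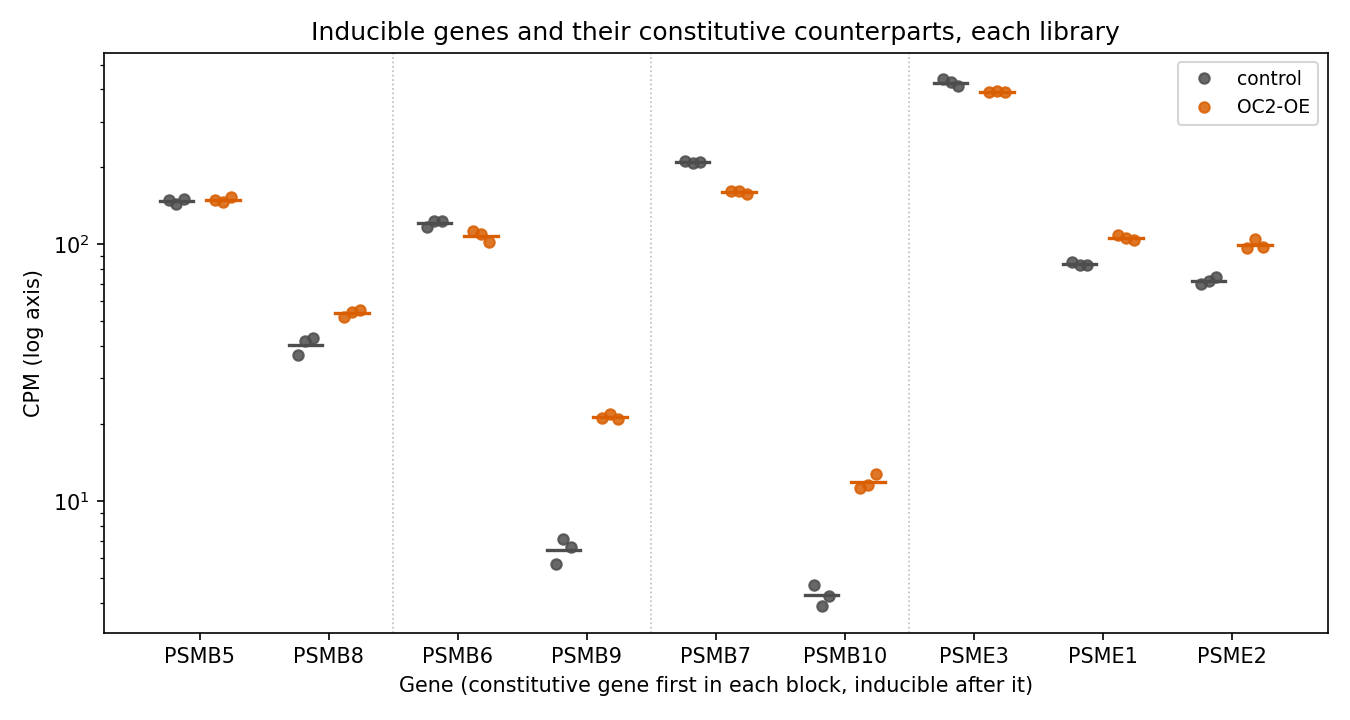
CPM on a log axis in each library for the inducible genes and their constitutive counterparts; points are libraries and horizontal lines are means of 3. PSMB9 (6.45 and 21.2 CPM) and PSMB10 (4.28 and 11.8 CPM) show the widest gaps between control and OC2-OE, and PSMB5 (147 and 149 CPM) shows none.

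The subunits PA28 alpha and beta, encoded by PSME1 and PSME2, lie close to each other on chromosome 14. PSME1 (ENSG00000092010.15, plus strand, 24136163 to 24138967) had 85.4, 83.0 and 83.1 CPM in control and 109, 105 and 103 CPM in OC2-OE. Its mean rose from 83.8 ± 1.34 to 106 ± 2.69 CPM (SD, n = 3) (log2 fold change 0.33, SE 0.037, adjusted p = 1.87e-14). PSME2 (ENSG00000100911.16, minus strand, 24143362 to 24147570) had 70.2, 72.0 and 74.2 CPM in control and 96.3, 104 and 97.6 CPM in OC2-OE. For PSME2 the estimated log2 fold change was 0.46 (SE 0.039, adjusted p = 7.08e-21), from 72.1 ± 2.0 to 99.4 ± 4.39 CPM (SD, n = 3). Neither gene had an OC2-OE library within the range of the control libraries. Both rose by less than 1.5-fold.

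Because these 5 genes moved in the same direction, their promoters are shown, together with that of PSMB5. RefSeq windows on GRCh38.p14 from 250 bases before to 50 bases after a transcript start were at hand for 43 of the 49 members, as 53 windows, and for 35116 starts in all. Each was searched on both strands for the IRF element (GAAANNGAA, bound by interferon regulatory factors), GAS (TTCNNNGAA, the interferon-gamma activated site), the core of the antioxidant response element (TGACNNNGC, bound by NFE2L1 and NFE2L2), the NF-kB consensus, and the ONECUT core (ATCAAT or ATCGAT). Capitals mark matches to the IRF element and to GAS, which did not overlap in these stretches. Each stretch runs from 100 bases before the start to 30 bases from it on, on the strand of the gene.
PSMB8 at chr6:32844018-32844147, minus strand: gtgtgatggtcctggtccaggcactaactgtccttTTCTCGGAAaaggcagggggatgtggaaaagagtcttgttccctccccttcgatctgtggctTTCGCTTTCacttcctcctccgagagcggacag
PSMB9 at chr6:32854092-32854221, plus strand: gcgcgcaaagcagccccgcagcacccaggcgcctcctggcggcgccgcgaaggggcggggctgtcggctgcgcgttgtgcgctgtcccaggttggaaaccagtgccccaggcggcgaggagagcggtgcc
PSMB10 at chr16:67936821-67936950, minus strand: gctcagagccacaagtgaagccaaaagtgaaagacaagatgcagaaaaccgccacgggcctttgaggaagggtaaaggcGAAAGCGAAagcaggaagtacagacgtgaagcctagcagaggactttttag
PSME1 at chr14:24136094-24136223, plus strand: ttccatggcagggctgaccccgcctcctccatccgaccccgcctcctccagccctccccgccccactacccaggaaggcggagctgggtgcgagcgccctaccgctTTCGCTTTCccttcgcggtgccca
PSME2 at chr14:24146581-24146710, minus strand: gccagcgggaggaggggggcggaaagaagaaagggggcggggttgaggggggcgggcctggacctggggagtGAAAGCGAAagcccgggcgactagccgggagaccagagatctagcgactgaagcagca
PSMB5 at chr14:23034871-23035000, minus strand: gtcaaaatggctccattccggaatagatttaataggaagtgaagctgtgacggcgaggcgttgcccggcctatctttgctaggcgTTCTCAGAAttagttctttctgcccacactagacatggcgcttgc

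The IRF element was found in 4 of the 6 windows of the inducible genes, those of PSMB8, PSMB10, PSME1 and PSME2. It was found in 8.51% of the 47 windows of other members and in 8.11% of all windows. In PSMB10 it began 21 bases before the start and in PSME2 28 bases before it, while in PSMB8 it lay across the start and in PSME1 it lay 7 to 15 bases downstream, on the opposite strand in both. PSMB8 and PSMB5 each have another annotated start, whose window held neither the IRF element nor GAS. The window of PSMB9, the member with the largest rise, held no match to either. The other members with an IRF element were PSMB4 and PSMG4, which were higher, PSMC2, which was lower, and PSMA4, which had no call. GAS was found in the windows of 8 members, among them PSMB8, PSMB5 and PSME3, and in 15.1% of member windows against 7.66% of all windows. The antioxidant response core was found in 28.3% of member windows and in 13.3% of all windows. The NF-kB consensus was found in 3.77% of member windows against 11.3% of all, and the ONECUT core in 1.89% against 6.96%, with PSMA1 as its only member. These matches describe letters within the windows, and binding was not measured in these libraries.

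None of the constitutive counterparts of the inducible genes was called higher. PSMB5 had 149, 143 and 149 CPM in control and 148, 145 and 153 CPM in OC2-OE. The groups overlapped, and the estimated log2 fold change was 0.02 (SE 0.031, adjusted p = 0.659). PSMB6 had 116, 122 and 123 CPM in control and 112, 109 and 102 CPM in OC2-OE. It fell by 10.5% (log2 fold change -0.16, SE 0.035, adjusted p = 2.88e-05), without overlap of the groups, but had no call with library size only, with upper-quartile scaling or without OC2-OE replicate 3. PSMB7 had 210, 207 and 208 CPM in control and 161, 160 and 156 CPM in OC2-OE. It fell by 23.6% (log2 fold change -0.39, SE 0.029, adjusted p = 1.05e-24), the largest fall among the 20S and 19S subunits named PSM.

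The balance within each pair was compared as a log2 ratio of levels per exon length. PSMB8 per 100 of PSMB5 was 11.02, 13.02 and 12.8 in control and 15.6, 16.7 and 16.1 in OC2-OE, a log2 difference of 0.40 or 1.32-fold. PSMB9 per 100 of PSMB6 was 2.12, 2.52 and 2.32 in control and 8.12, 8.62 and 8.90 in OC2-OE, a log2 difference of 1.88 or 3.69-fold. PSMB10 per 100 of PSMB7 was 2.47, 2.06 and 2.24 in control and 7.66, 7.91 and 8.93 in OC2-OE, a log2 difference of 1.86 or 3.62-fold. In each pair the 2 groups of 3 libraries did not overlap. The immunosubunit transcript remained the minor form of its pair in every library. For the activators, PSME1 per 100 of PSME3 averaged 57.2 in control and 78.4 in OC2-OE (1.37-fold), and PSME2 per 100 of PSME3 averaged 24.4 and 36.6 (1.499-fold). The exact two-sided permutation test gave p = 0.1 for each of the 5 ratios, the smallest value that 3 against 3 libraries allow, so none can pass 0.05.

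The immunosubunits made up 5.22% ± 0.262 of the summed level of the 6 catalytic genes in control and 10.1% ± 0.402 in OC2-OE (SD, n = 3). These shares depend on the length used for each gene. The deposited lengths sum all annotated exons of a gene, and with the length of the principal coding transcript of GENCODE release 29 the shares were 9.28% and 17.4%. On that scale PSMB8 per 100 of PSMB5 was 31.7 and 41.7, PSMB9 per 100 of PSMB6 was 5.82 and 21.5, and PSMB10 per 100 of PSMB7 was 1.65 and 5.96. PSME1 per 100 of PSME3 was then 19.5 and 26.8, and PSME2 per 100 of PSME3 was 12.05 and 18.1. The log2 difference between groups within a pair does not depend on length, while the difference in shares does.

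**Figure D3:**
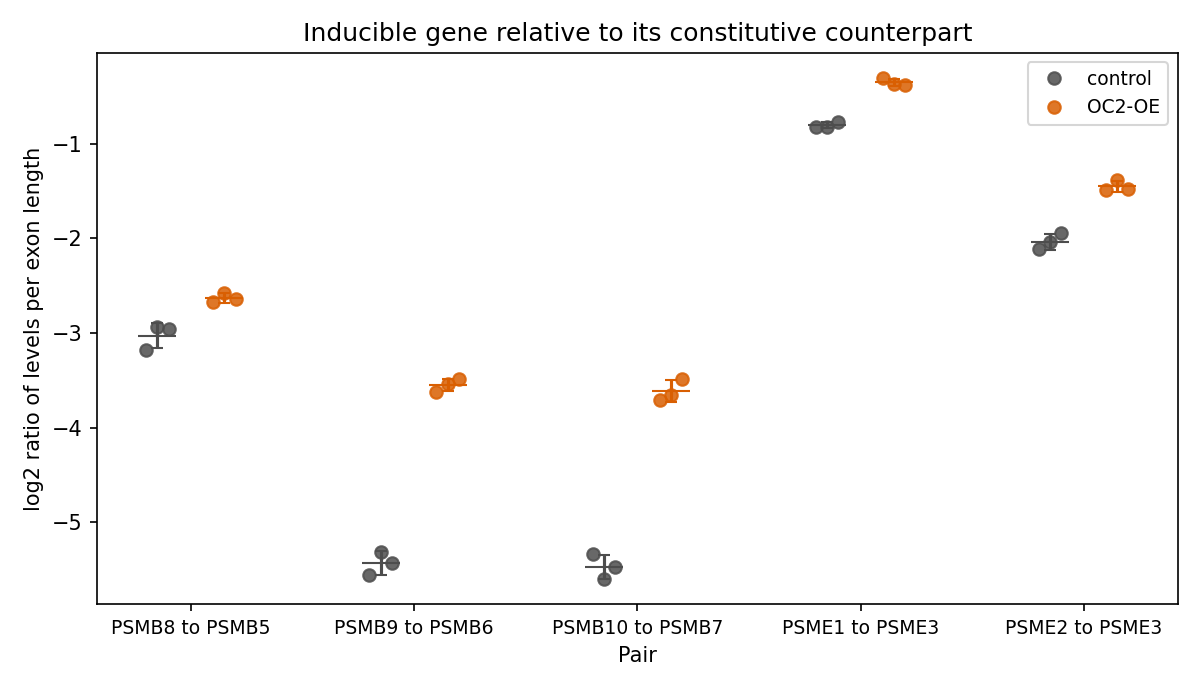
Log2 ratio of each inducible gene to its constitutive counterpart, from levels per exon length, in each of 6 libraries; points are libraries, and bars give the mean and SD of 3. The ratio was higher in all OC2-OE libraries for all 5 pairs, by a log2 difference of 1.88 for PSMB9 to PSMB6, by 1.86 for PSMB10 to PSMB7, and by 0.40 to 0.58 for the other pairs.

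Among the remaining regulators of the core, PSME4 rose while PSME3 and PSMF1 fell. PSME4 encodes PA200, a large nuclear activator that works without ubiquitin. It had 326, 323 and 323 CPM in control and 390, 399 and 393 CPM in OC2-OE (log2 fold change 0.28, SE 0.024, adjusted p = 3.83e-21) without overlap. PSME3 encodes PA28 gamma, which forms a nuclear ring of its own. Its libraries had 438, 427 and 411 CPM in control and 390, 393 and 391 CPM in OC2-OE. It fell by 8.11% (adjusted p = 1.68e-06) without overlap, a call that was lost with library size only and with upper-quartile scaling. PSMF1 encodes PI31, known as an inhibitor of the core and as an adaptor for proteasome transport. It had 189, 182 and 182 CPM in control and 140, 141 and 145 CPM in OC2-OE and fell by 23.0% (log2 fold change -0.38, SE 0.030, adjusted p = 1.92e-22). All its OC2-OE libraries lay far below the control libraries.

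The alpha ring, which forms the gate of the core, had few calls. Of its 7 tested members, PSMA3 was lower, PSMA7 was higher and 5 had no call. The shares were 14.3% in each direction, beside 28.7% lower and 27.8% higher over all tested genes. PSMA3 fell by 15.7% (log2 fold change -0.25, adjusted p = 2.87e-11), from 145 to 122 CPM without overlap. PSMA7 rose 1.08-fold (log2 fold change 0.12, adjusted p = 0.00019), from 213 to 231 CPM, but its groups overlapped and the call was lost in 5 of 14 alternative fits, among them those without control replicate 1, control replicate 2, OC2-OE replicate 1 or OC2-OE replicate 2. PSMA4 (log2 fold change 0.09), PSMA5 (-0.05) and PSMA6 (0.04) had no call, but PSMA4 was called higher with library size only and with upper-quartile scaling. PSMA1 had 68.5, 66.2 and 70.8 CPM in control and 75.9, 78.2 and 71.7 CPM in OC2-OE. Its groups did not overlap, but its log2 fold change of 0.14 did not pass the threshold (adjusted p = 0.00257). PSMA1 was called higher in 3 of 14 alternative fits, with library size only, with upper-quartile scaling and without OC2-OE replicate 3. PSMA2 was counted at 1.39, 1.49 and 2.21 CPM in control and 2.19, 2.94 and 2.63 CPM in OC2-OE, with overlap and no call (log2 fold change 0.61, SE 0.23, adjusted p = 0.0118). PSMA8, the alpha subunit of the testis, had 0 counts in all 6 libraries.

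Of the constitutive beta ring, 7 members were tested, and 4 were lower, 1 was higher and 2 had no call. The shares were 57.1% lower and 14.3% higher, beside 28.7% and 27.8% over all tested genes. Among all genes with a mean log2 CPM of at least 5, 39.8% were lower. Besides PSMB6 and PSMB7, the structural subunits PSMB1 and PSMB3 fell. PSMB3 had 131, 128 and 125 CPM in control and 109, 112 and 112 CPM in OC2-OE, without overlap, and fell by 13.1% (adjusted p = 5.29e-08). PSMB1 fell by 12.2% (adjusted p = 2.97e-05), but had no call with library size only, with upper-quartile scaling, without control replicate 3 or without OC2-OE replicate 3. PSMB4 rose 1.09-fold (log2 fold change 0.12, adjusted p = 2.4e-05), from 233 to 253 CPM without overlap. PSMB2 stayed without a call (log2 fold change 0.02, adjusted p = 0.526), like PSMB5. PSMB11, the beta subunit of the thymus, had 0 counts in all 6 libraries.

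The genes named PSMC and PSMD, grouped here as the 19S particle, had only falls among their calls. These falls made up 33.3% of the ATPases and 35.7% of the non-ATPase genes, which include the base chaperones PSMD5, PSMD9 and PSMD10. Over all tested genes 28.7% were lower and 27.8% higher. Among all genes with a mean log2 CPM of at least 5, 39.8% were lower. The difference from these shares was not tested. Of the ATPases, which form the ring that unfolds substrates, PSMC1 fell by 17.6% (log2 fold change -0.28, adjusted p = 1.85e-08) and PSMC2 by 12.0%, with a log2 change of -0.19 (adjusted p = 2.5e-09). The groups of both did not overlap. PSMC3, PSMC4, PSMC5 and PSMC6 had log2 fold changes of -0.03, 0.08, 0.03 and -0.00035 and no call. PSMC4 was the nearest to one (adjusted p = 0.00113) and was called higher in 5 of 14 alternative fits.

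Among the 14 non-ATPase genes, 5 were lower (35.7%) and 9 had no call. Beside this, 28.7% of all tested genes were lower, and 39.8% of those with a mean log2 CPM of at least 5. PSMD1 and PSMD2 encode the large scaffolds of the base. PSMD2 had 408, 396 and 397 CPM in control and 332, 339 and 337 CPM in OC2-OE, and fell by 16.1% (adjusted p = 1.78e-18). PSMD1 fell by 9.86% (adjusted p = 3.84e-07). The lid subunit PSMD6 fell by 21.6%, from 51.9 ± 1.64 to 40.7 ± 2.32 CPM (SD, n = 3, adjusted p = 8.03e-10). PSMD14, the deubiquitinase that removes ubiquitin from arriving substrates, fell by 8.96% (adjusted p = 1.97e-07). PSMD5, a chaperone of base assembly despite its name, fell by 19.6%, from 111 ± 2.92 to 89.1 ± 0.901 CPM (SD, n = 3, adjusted p = 1.09e-13). None of these 5 genes had overlapping groups, as was the case for 73.2% of all tested genes. The ubiquitin receptor PSMD4 had a log2 fold change of -0.03 and no call. The others without a call were PSMD3, PSMD7, PSMD8, PSMD9, PSMD10, PSMD11, PSMD12 and PSMD13, with log2 fold changes between -0.13 for PSMD10 and 0.04 for PSMD11. Of the other base chaperones with this name, PSMD10 had an adjusted p of 0.00229 and PSMD9 of 0.879. PSMD10 was called lower without OC2-OE replicate 1.

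All 4 chaperones of 20S assembly with a PSMG name were called, 3 lower and 1 higher, beside 28.7% lower and 27.8% higher over all tested genes. POMP, a 20S assembly factor outside the PSM names, was lower too (log2 fold change -0.26, adjusted p = 2.24e-12). PSMG1 and PSMG2 work as a pair on the alpha ring, as do PSMG3 and PSMG4. PSMG1 had 38.6, 40.4 and 39.9 CPM in control and 32.6, 29.5 and 30.4 CPM in OC2-OE and fell by 22.1% (log2 fold change -0.36, SE 0.057, adjusted p = 1.15e-08). PSMG3 had 32.3, 37.6 and 34.3 CPM in control and 28.0, 26.7 and 26.6 CPM in OC2-OE and fell by 21.7% (log2 fold change -0.35, SE 0.061, adjusted p = 1.5e-07). PSMG2 fell by 12.4% (log2 fold change -0.19, adjusted p = 1.22e-05), a call lost with library size only. PSMG4 went the other way, with 5.19, 6.39 and 4.74 CPM in control and 9.81, 9.18 and 8.45 CPM in OC2-OE (log2 fold change 0.75, SE 0.12, adjusted p = 3.05e-08). None of the 4 had overlapping groups, a separation found for 73.2% of all tested genes. PSMG4 had the lowest level of the 4, 2.13 TPM in control, against 26.8 to 75.2 TPM for the others. Per kilobase of principal transcript it had 6.49 CPM in control, against 18.4 to 48.7 CPM for the others, so the gap depends on the length used.

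PSMC3IP, kept by its name alone, had the largest fall of all members. It had 49.8, 51.1 and 48.8 CPM in control and 27.3, 28.4 and 27.0 CPM in OC2-OE, a fall of 44.8% (log2 fold change -0.86, SE 0.055, adjusted p = 2.33e-29). The ranges of the groups were far apart.

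Summed by role, the constitutive transcripts stayed close to their control level. The constitutive 20S and 19S genes together had 5915 ± 16.5 CPM in control and 5636 ± 36.5 CPM in OC2-OE (SD, n = 3), a difference of -4.71% without overlap, and of -1.32% with library size only. The beta ring differed by -4.93% and the non-ATPase genes by -7.06%, and both remained below control under each of 4 scalings, at -1.56% and -3.76% with library size only and -2.09% and -4.28% with upper-quartile scaling. The alpha ring differed by 0.77%, and by 4.35% with library size only and 3.78% with upper-quartile scaling, with overlapping libraries in each. The ATPases differed by -1.85%, but by 1.09% with upper-quartile scaling and by 1.64% with library size only, so their direction was not stable. The immunosubunits differed by 69.4% and the 5 inducible genes by 40.9%, and by 75.4% and 45.9% with library size only.

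Levels differed widely between members. Among the 30 tested constitutive 20S and 19S genes without exons shared along the principal transcript, control levels ran from 23.4 TPM for PSMD6 to 500.0 TPM for PSMC4, with a median of 192 TPM. In OC2-OE cells these 30 ran from 18.8 TPM for PSMD6 to 552 TPM for PSMA7, with a median of 189 TPM. Per kilobase of principal transcript the order of these 30 was another, so it depends on the length used. PSMC1 was then lowest at 14.997 CPM and PSMB4 highest at 242 CPM in control. Multi-mapping pairs were left uncounted, and PSMC1 has pseudogenes, of which PSMC1P1 had 66 counts in control and 55 in OC2-OE. The part of uncounted pairs in these levels was not tested.

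Some low levels came with shared exons. PSMA2 had 99.1% of the bases of its principal transcript inside exons of another gene on the same strand, PSMA6 81.0%, PSMA1 53.2%, PSMB10 45.3% and PSMD9 28.2%. Because read pairs in the exons of several genes were left uncounted, these genes keep only part of their reads, and PSMA2 kept 87 counts over the 3 control libraries. The other genes had 0 to 3 counts over the control libraries, except that of PSMB10 with 71. The levels of these 5 genes are lower limits, and their fold changes rest on the reads that remained. PSMB9 shares 174 bases with PSMB8-AS1, none of them in its principal transcript.

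**Figure D4:**
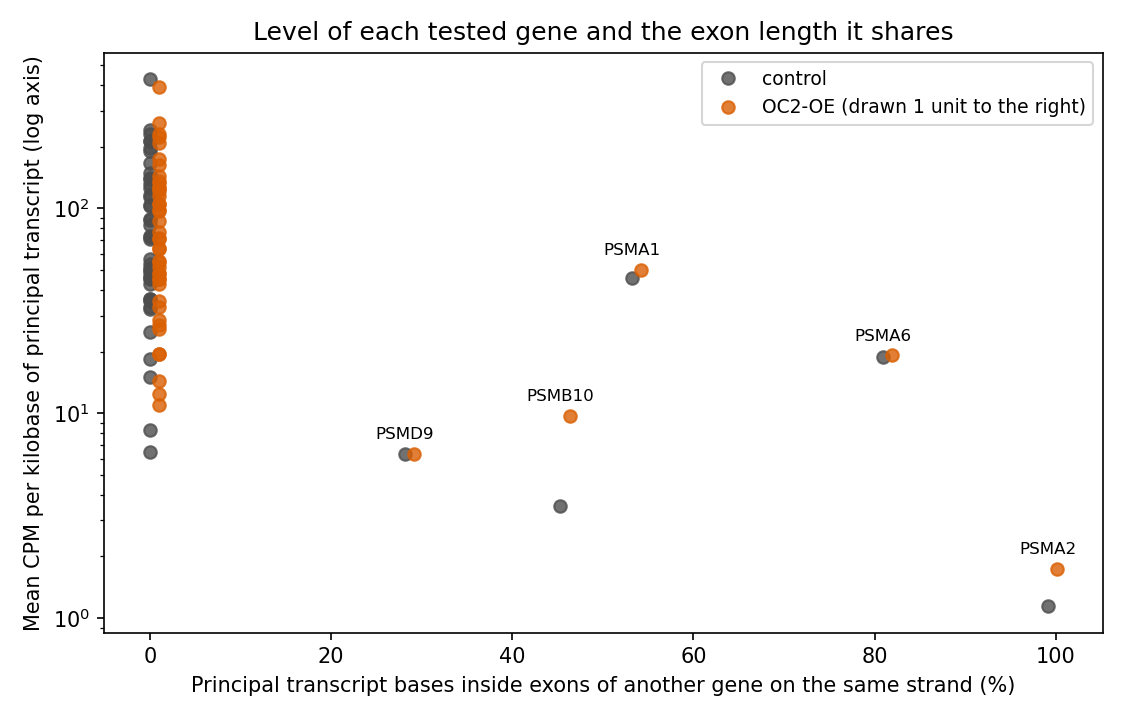
Mean CPM per kilobase of principal transcript, on a log axis, against the percent of that transcript inside exons of another gene on the same strand, for the 47 tested members in control and OC2-OE. PSMA2, at 99.1% shared, is the lowest at 1.14 CPM per kilobase in control; PSMB9 and PSMG4 are low without sharing.

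Genes of lists around the proteasome are given beside the shares over all tested genes, 27.8% called higher and 28.7% called lower, and no list was tested as a whole. Of 20 proteasome-associated and shuttling factors, 4 were higher, 6 were lower and 10 had no call, with a median log2 fold change of -0.05, so the shares were close to those over all genes. SEM1, a small 19S lid subunit outside the PSM names, fell from 116 ± 4.53 to 77.8 ± 1.598 CPM (log2 fold change -0.58, adjusted p = 2.25e-29). UCHL5, the deubiquitinase of the 19S base, fell from 98.4 ± 3.15 to 66.2 ± 0.732 CPM (log2 fold change -0.57), while its receptor ADRM1 had 167 and 168 CPM and no call. UBQLN2, a shuttle that carries ubiquitinated proteins, rose from 50.2 ± 3.998 to 74.7 ± 2.80 CPM (log2 fold change 0.57), and TMUB1 fell by 0.50 on the log2 scale. Of the 6 ubiquitin and E1 genes, none was higher, 3 were lower and 3 had no call, with a median of -0.09. RPS27A, which encodes ubiquitin fused to a ribosomal protein, had a log2 fold change of -0.39 and UBA6 of -0.34.

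NFE2L1 is the transcription factor that raises proteasome subunit genes when proteasome activity is short. Of 10 genes of its pathway, 5 were higher, 2 were lower and 3 had no call, with a median log2 fold change of 0.18, beside 27.8% higher and 28.7% lower and a median of 0.01 over all tested genes. NFE2L1 itself rose from 511 ± 1.93 to 905 ± 1.41 CPM (log2 fold change 0.83, adjusted p = 6.49e-68). NGLY1, which removes its sugars, rose from 15.5 ± 0.233 to 28.8 ± 0.192 CPM (log2 fold change 0.89). DDI2, the protease that processes it, was lower with a log2 fold change of -0.37, FBXW7, a ubiquitin ligase subunit, was lower with -0.66, and MAFF was higher with 0.60.

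Of 14 genes that lead from interferon to the immunosubunit promoters, 13 were tested, and 8 were higher, 1 was lower and 4 had no call, with a median log2 fold change of 0.37. Over all tested genes 27.8% were higher and 28.7% lower, with a median of 0.01. IRF1, a factor that binds IRF elements after interferon-gamma, rose from 30.4 ± 1.34 to 69.0 ± 3.30 CPM (log2 fold change 1.18, adjusted p = 2.84e-44). STAT2 rose from 52.7 ± 3.19 to 136 ± 3.33 CPM (log2 fold change 1.37). IFNGR1 rose from 20.8 ± 1.12 to 35.7 ± 1.34 CPM (0.78) and IFNAR2 from 10.7 ± 0.746 to 17.3 ± 0.540 CPM (0.69). The gene called lower was IFNAR1, from 82.8 ± 0.520 to 72.0 ± 0.993 CPM (-0.20). NLRC5, the activator of MHC class I genes, had 50.7 and 54.1 CPM and no call, IRF9 had 2.89 and 2.81 CPM and no call, and IRF8 had 0 counts. Of 11 genes that trim and carry peptides after the proteasome, 6 were higher, 2 were lower and 3 had no call, with a median of 0.24, beside the same shares over all genes. ERAP2, which trims peptides in the endoplasmic reticulum, rose from 1.505 ± 0.498 to 6.61 ± 0.457 CPM (log2 fold change 2.11). TAP2, part of the peptide transporter and a neighbour of PSMB8 and PSMB9, rose from 10.1 ± 0.422 to 39.0 ± 3.005 CPM (log2 fold change 1.94). TAPBP rose from 107 ± 2.22 to 361 ± 4.33 CPM (1.76) and ERAP1 from 54.3 ± 0.508 to 124 ± 2.95 CPM (1.19). The cytosolic peptidases THOP1 and LAP3, which act on proteasome products, were lower, with -0.41 and -0.35.

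Immunosubunits are abundant in blood cells, so markers of other cell types were read in the same libraries. Their calls stand beside 27.8% higher and 28.7% lower over all tested genes. Of 7 haematopoietic markers, 3 were tested and all 3 were higher, CD74 with a log2 fold change of 0.56, CD14 with 0.71 and LYZ with 2.44. The 7 together summed to 30.1 to 34.2 CPM in control and 47.6 to 52.9 CPM in OC2-OE, most of it CD74. The defining leukocyte marker PTPRC had 0 counts in control and 3 in OC2-OE over 3 libraries each, and CD3E and HBB had 0 in all. Of 5 fibroblast markers, 3 were tested, and COL1A1 (0.37) and PDGFRB (2.48) were higher, with summed levels of 21.1 to 23.8 CPM in control and 28.1 to 32.0 CPM in OC2-OE, while DCN and LUM had at most 6 counts in either group. The NE markers of the line were all detected. Of 6, CHGA was higher and GRP, NCAM1, INSM1, CALCA and SYP were lower, from 4786 to 4831 CPM in sum in control to 3122 to 3184 CPM in OC2-OE. The part of these shifts in the rise of the inducible genes was not tested.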

How the data were processed

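RNA-Seq counts from 6 DMS53 libraries, 3 control and 3 OC2-OE, were used. From stranded poly(A) libraries the authors aligned reads with STAR version 2.7.9a and counted read pairs on exons per gene with featureCounts version 1.6.0 (GENCODE release 42, GRCh38). Per the file headers, pairs were counted by strand, and neither multi-mapping pairs nor pairs in several genes were assigned. The deposited values are raw counts per gene. Groups came from the sample titles.

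Counts were scaled by TMM, kept with filterByExpr (17307 of 62696 genes) and tested with the quasi-likelihood test of edgeR version 4.0.16 in R version 4.3.3, without a replicate term and with Benjamini-Hochberg adjustment over all tested genes. The threshold was 0.001. Ratios were compared by an exact two-sided permutation test of 3 against 3 libraries. Symbols were matched for 62625 genes. Transcript lengths came from GENCODE release 29, since another release was not used here, and promoters from RefSeq. In simulated counts with the common dispersion, the fit called 94 of 100 genes with a planted log2 change of 0.5. It called 100 of 100 with a change of 1, and 0 of 16817 unchanged genes. Smaller changes, such as those of most called members, were not simulated.

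Values in each library are given for the inducible genes, their counterparts and the 4 largest rises and falls among other members. The other called members are given with their change and adjusted p. Members without a call or a test are given more briefly. From each list, up to 4 called genes are given, chosen by absolute change. ADRM1, POMP, DDI2, IFNAR1, NLRC5, IRF9, LAP3 and THOP1 were chosen after their values were seen. So were PSMB3 and PSMD2, for their values in each library. Some genes of the lists are counted but not reported here by name. The members and lists were chosen with earlier results of these data known.

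Alternatives were DESeq2's size factors, library size only, upper-quartile scaling, DESeq2 version 1.42.0, limma voom (version 3.58.1), other count filters, a block for the replicate number, leave-one-out fits, other thresholds and, chosen after seeing the data, lengths of principal transcripts.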

Additional observations from a re-analysis of the deposited data

How the results depend on the processing

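The 14 alternative fits kept the call of 22 of the 27 called members, 8 higher and 14 lower, and no called member changed sign. All 5 inducible genes kept their call in every fit. With a minimum change of 1.5-fold the counts moved to 3 members higher and 1 lower. Leaving out each library in turn gave 8 to 10 higher and 16 to 19 lower. PSMB5, with a log2 fold change of 0.02 and no call, ranged in the leave-one-out fits from -0.0041 without control replicate 2 to 0.036 without OC2-OE replicate 2, reached 0.07 with library size only, and had no call in any fit. The cause was not tested. The replicate block gave 10 higher and 18 lower, with PSMC4 added. Correlations of the deviations of same-numbered libraries were 0.00115, 0.0301 and 0.0252, so the numbers were not taken to pair the samples. Ratios of genes within a library cancel its scaling, and the replicate block leaves their group difference the same in this balanced design. Neither was thus a check of the ratios. Depth limits the genes with few counts, PSMA2, PSMG4, PSMB9 and PSMB10, and levels of genes with shared exons are lower limits.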
